A study of Mus musculus with 91 samples.

Results

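Tal2 divided the epiblast-like cells of the caudal mouse embryo into a set of 22 cells with reads of the gene and a set of 21 cells with none. Epiblast-like cells were those in which the level of Nkx1-2, a caudal epiblast gene, was above that of Aldh1a2, a gene of young mesoderm, and 43 of the 91 cells met this rule (47.3%, exact 95% interval 36.7 to 58%). The cells of the 2 sets were selected on their own Tal2 reads: a cell with at least 1 was called Tal2-positive, and the 22 such cells made up 51.2% of the epiblast-like cells (interval 35.5 to 66.7%). These intervals cover the counting error of cells only, since the cells are 1 pool and differences between embryos are not covered. Smart-seq2 reads carry no molecular identifiers, and several may come from 1 molecule.

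All cells were wild type, from embryos of the outbred MF1 mouse strain at the early headfold stage (about embryonic day 8.0), when the trunk is laid down from the caudal epiblast. Caudal lateral epiblast was dissected together with some adhering mesoderm, pooled over embryos, dissociated and sorted with 1 cell per well, and each cell gave full-length cDNA by Smart-seq2. Both sets of cells thus share strain, stage, pool and plate, and were split by their own Tal2 reads. Whether they hold cells of the same embryos is not known. No embryo is named for any cell, so the cells are 1 sample without replicates, no test was made, and each SD below is a spread between cells.

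Tal2 encodes a short basic helix-loop-helix protein of the Tal family, whose members bind DNA as dimers with E proteins such as those of Tcf3, Tcf4 and Tcf12 and recruit Lmo and Ldb proteins. Tal2 is best known for its role in GABAergic neurons of the midbrain and for its activation in a T cell leukaemia. The caudal epiblast is an epithelium next to the primitive streak, whose cells either stay as progenitors of the trunk or enter the streak, switch on genes such as Mixl1 and Tbx6 and leave as mesoderm.

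The Tal2 gene (ENSMUSG00000028417) lies on chromosome 4 of GRCm38 from 53779705 to 53788712 on the plus strand, with 2 exons of 69 and 2902 bases. The coding part of 324 bases (53785821 to 53786144) lies in the second exon, and no other annotated gene overlaps Tal2, so that its reads are not shared with an overlapping or antisense gene. The 250 bases before its RefSeq start (GRCm38.p6, chr4:53779451-53779700, plus strand) are shown because Tal2 reads define the sets. Capitals mark TATAAA, the core of a TATA box, and ACAAAG, a core shared by sites of Sox and of Tcf/Lef factors; both strands were searched and the matches do not overlap.
Tal2: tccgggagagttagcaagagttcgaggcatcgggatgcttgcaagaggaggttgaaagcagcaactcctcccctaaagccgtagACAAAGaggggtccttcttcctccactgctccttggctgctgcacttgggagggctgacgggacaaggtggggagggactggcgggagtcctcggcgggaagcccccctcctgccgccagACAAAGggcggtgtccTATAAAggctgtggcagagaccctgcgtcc
TATAAA begins at position -30 from the start, and ACAAAG at -166 and -46. Over 32851 RefSeq windows of this length, 12.4% held TATAAA, 16.5% held ACAAAG and 1.74% held it at least 2 times, in either orientation. The window of T, a streak gene described below (chr17:8434173-8434422, plus strand), held neither. These matches are a description of the letters and say nothing of a factor.

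Tal2 reads were either many or absent. In the Tal2-positive cells the gene ranged from 1.11 to 389 CPM (reads scaled to a total of 1000000 per cell) with a median of 92.2 and a mean of 121 ± 95 CPM (SD over 22 cells). Of these cells, 21 had 88 to 1125 Tal2 reads with a median of 240, or 38.1 to 389 CPM with a median of 93.4. The remaining positive cell, E4, had 2 reads and was the only member just inside the threshold of 1 read, with all 21 negative cells at 0 just outside. No epiblast-like cell therefore fell between 2 and 88 reads. Since Tal2 reads made the sets, these levels describe them and test nothing.

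Outside the epiblast-like cells Tal2 was read at most 2 times in a cell. Of the 48 other cells, 5 had 1 or 2 reads (10.4%, interval 3.47 to 22.7%), with a highest level of 0.811 CPM. With at least 5 reads asked for there were 0 of 48, which allows a share of up to 7.40%, against 21 of 43 epiblast-like cells (48.8%, interval 33.3 to 64.5%). For comparison, 20 genes that belong to other organs were counted in every cell, and 1 to 4 reads were seen in 0.455% of these combinations in Tal2-positive, 0.952% in Tal2-negative and 0.625% in the other cells. The share of other cells with 1 or 2 Tal2 reads was above that level. With any number of reads the shares were 2.05%, 2.38% and 1.15%, of which the myelin gene Mbp, with at least 5 reads in 4 positive and 6 negative cells, made up 4 of 9 and 6 of 10 combinations in the Tal2 sets. The source of the 1 or 2 reads of E4 and of the 5 other cells was not tested.

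**Figure D1:**
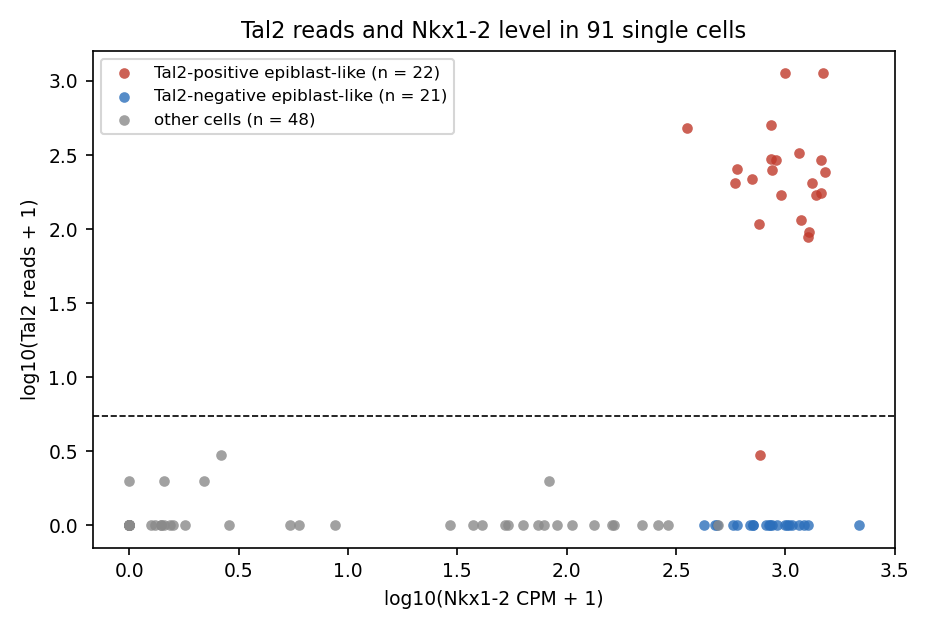
Each point is 1 of 91 cells, with log10(Nkx1-2 CPM + 1) on the horizontal and log10(Tal2 reads + 1) on the vertical axis; a dashed line is drawn between 4 and 5 reads. The 21 cells above the line, with 88 to 1125 Tal2 reads, are all epiblast-like, and the 48 other cells (grey) have at most 2 reads.

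Most genes of like level had reads in more cells. Over all epiblast-like cells Tal2 averaged 62.1 CPM, and 961 other genes averaged within 1.2-fold of that, in CPM not scaled for gene length. These genes had a read in a median of 34 of the 43 cells (range 10 to 43), whereas Tal2 had one in 22. Of them, 4.16% (40 genes) had a read in no more cells than Tal2. In Smart-seq2 a cell without a read may still hold the transcript, so a negative cell is one without detected Tal2.

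The sets differed little in depth and cell quality. Total counts ran from 1260653 to 3660747 in Tal2-positive cells (median 2376978) and from 1333149 to 3927737 in Tal2-negative cells (median 2473606), the number of genes with a read had medians of 8350 and 8138, and the mitochondrial share had medians of 3.70% and 3.83%. On the plate, every row held cells of both sets, from 1 positive of 5 epiblast-like cells in row F to 6 of 8 in row G. The Y-linked genes Ddx3y, Eif2s3y, Kdm5d and Uty together had at least 5 reads in 18 of 22 and 15 of 21 cells, and Xist in 1 and 2 cells, so most cells of both sets carried Y-linked reads.

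Both sets carried the markers of caudal epiblast. All 8 epiblast markers, among them Nkx1-2, Cdh1, Wnt8a and Pou5f1, were read in 50% or more of each set, and none of 8 mesoderm markers was. Nkx1-2 is among the epiblast markers and Aldh1a2 among the mesoderm markers. Both are genes of the rule that selected the cells, so their values here describe that choice and test nothing. Nkx1-2 ranged from 356 to 1514 CPM in Tal2-positive cells (median 975) and from 425 to 2167 CPM in Tal2-negative cells (median 854), so the sets overlapped widely. Their means of 1032 ± 335 and 900 ± 379 CPM differed by a log2 ratio of 0.20, which is below 2-fold. The summed mesoderm markers, Aldh1a2 included, had medians of 0.550 and 12.5 CPM, and reached 57.9 CPM in Tal2-positive but 859 CPM in Tal2-negative cells. The highest sum was that of 1 cell, B10, in which Aldh1a2 gave 570 CPM and Dll1 230 CPM. The cell nearest to the edge of the epiblast-like rule was the Tal2-negative cell B10, with 688 CPM of Nkx1-2 and 570 CPM of Aldh1a2. Cell G3, with 164 and 301 CPM, lay nearest on the other side. Markers of blood and endothelium, node, endoderm, neural tissue, surface ectoderm and germ cells led neither set: no marker of these types was read in 50% or more of either set, the 4 germ cell markers had none, and the summed markers of each of these types had a median of at most 0.176 CPM in both sets.

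The sets were then compared over the 11290 genes with a read in at least 10 of the 43 cells. A ratio is the mean CPM of Tal2-positive over that of Tal2-negative cells after 1 CPM was added to both, and a gene was called 2-fold higher or lower in Tal2-positive cells at a log2 ratio of 1 or -1. By this rule 498 genes (4.41%) were higher and 514 (4.55%) lower, and the median log2 ratio was -0.01. When the ratio also had to stay 2-fold after any 1 cell was left out, 230 genes (2.04%) were higher and 221 (1.96%) lower, 3.99% in all. The calls describe 43 cells of 1 pool.

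**Figure D2:**
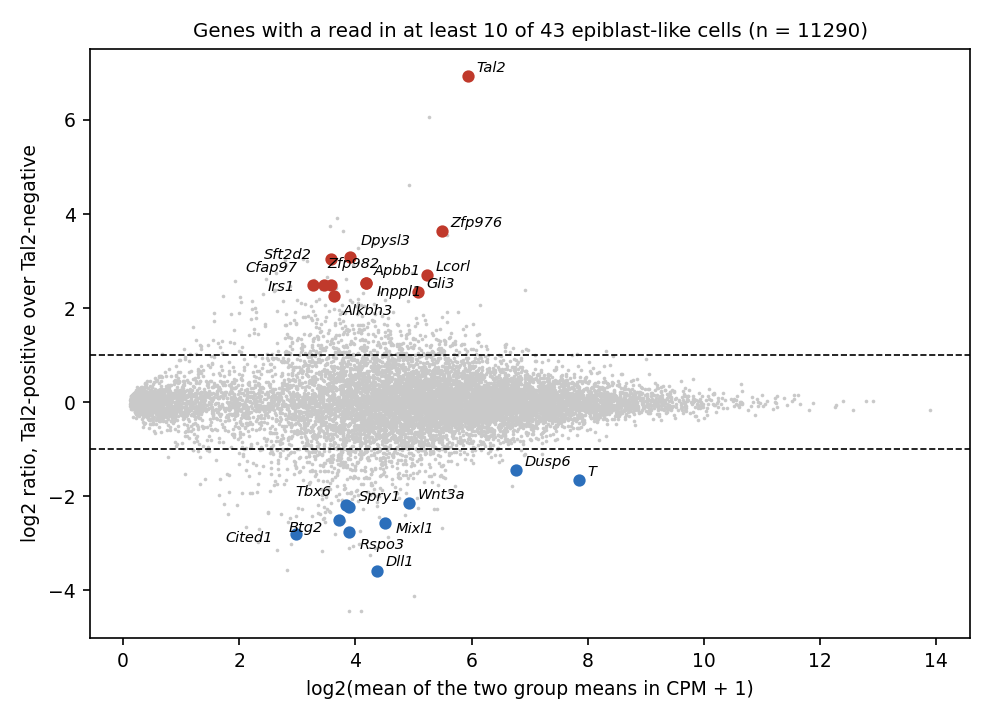
Each point is 1 of 11290 genes, with the log2 of the mean of both group means (CPM + 1) on the horizontal axis and the log2 ratio of Tal2-positive over Tal2-negative cells on the vertical axis; dashed lines mark 2-fold. Tal2 lies at 6.93, the other red points are the 11 named genes with the largest ratios upwards, and the blue points are 10 chosen list members that were called lower, from Dusp6 at -1.44 to Dll1 at -3.58.

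The named genes that were higher in Tal2-positive cells have varied functions. With a mean of at least 10 CPM and reads in at least 50% of the positive cells, and with the ratio at least 2-fold without any 1 cell, 110 genes were higher, Tal2 included. Sft2d2, a gene of vesicle transport, ranged from 0 to 62.5 CPM in Tal2-positive cells (median 10.6) and from 0 to 11.4 CPM in Tal2-negative cells (median 0). Its means of 20.2 ± 22.1 and 1.58 ± 3.02 CPM gave a log2 ratio of 3.04 (2.90 to 3.35 without any 1 cell), although cells at 0 were found in both sets. Irs1, an adaptor of the insulin receptor, had reads in 14 of 22 positive and 4 of 21 negative cells, at means of 15.4 ± 17.3 and 1.92 ± 5.93 CPM (log2 ratio 2.49, 2.26 to 3.18). Inppl1, which encodes a lipid phosphatase of the same signalling route, had reads in 16 and 6 cells, at 30 ± 50.8 and 4.37 ± 8.51 CPM (log2 ratio 2.53). Both genes were named for a large ratio with reads in at least 50% of the positive cells. Their counts and means thus describe them and test nothing.

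Further named genes that were higher were Dpysl3, Gli3, Lcorl and Apbb1. Dpysl3, a gene of the neurite cytoskeleton, ranged from 0 to 112 CPM in positive cells (median 7.29) and had reads in only 2 negative cells, H9 (26.9 CPM) and B10 (18.7 CPM). Its log2 ratio was 3.08 (2.84 to 3.79), and it was higher still in the 48 other cells, at 79.1 ± 97.7 CPM. Gli3, a transcription factor of Hedgehog signalling, ranged from 0 to 323 CPM (median 10.6) and from 0 to 114 CPM (median 0.331), with means of 55.4 ± 85.3 and 10.2 ± 25.6 CPM and a log2 ratio of 2.33 (1.96 to 3.23). It averaged 118 ± 123 CPM in the other cells, so neither Dpysl3 nor Gli3 was highest in Tal2-positive cells. Lcorl, a nuclear factor known from variation in body size, averaged 64.1 ± 105 and 9.0 ± 21.9 CPM (log2 ratio 2.70). Apbb1, an adaptor of the amyloid precursor protein, averaged 29.9 ± 41.4 and 4.34 ± 14.8 CPM (log2 ratio 2.53).

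The remaining named genes of this group included zinc finger genes. Of the genes named by rule, Zfp976 had the largest ratio after Tal2 (log2 ratio 3.63), but cell E3 alone held 1160 CPM, the median was 0.157 CPM in positive cells and 0 in negative cells, and the ratio was 2.25 without that cell. Zfp982 had reads in 15 positive and 4 negative cells (19.3 ± 29.6 and 2.62 ± 7.83 CPM, log2 ratio 2.49). Both belong to large families of near-identical genes, between which reads could be split, so their values are uncertain. Cfap97, a gene named for cilia and flagella, and Alkbh3, a demethylase that repairs alkylated nucleic acids, had log2 ratios of 2.5 and 2.26. Among genes outside the rule for naming, Ints6l (log2 ratio 4.62, 57.5 against 1.39 CPM) had reads in 9 and 2 cells, and the ratio of Gm43123 (6.07) fell to 0.78 without 1 cell; they are given because they stand out, after their values were seen.

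**Figure D3:**
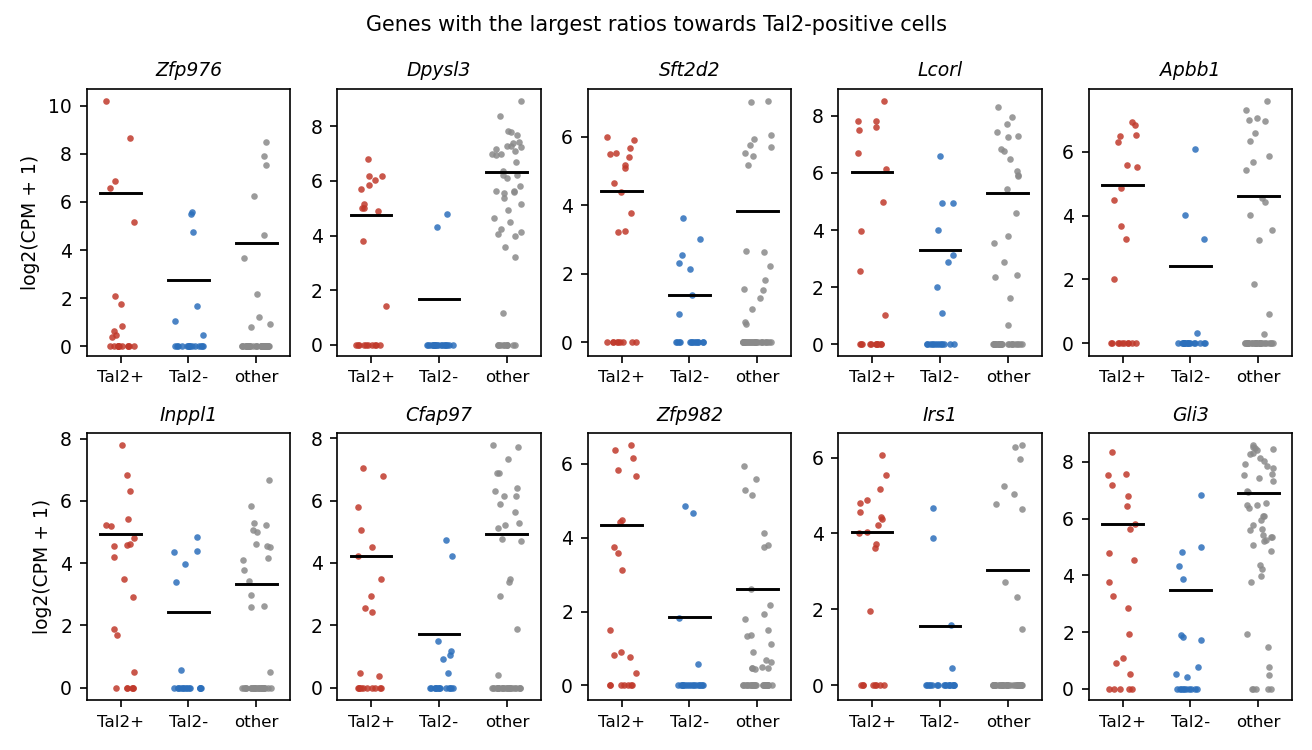
Log2(CPM + 1) of the 10 named genes with the largest ratios after Tal2, in 22 Tal2-positive (red), 21 Tal2-negative (blue) and 48 other cells (grey), 1 point per cell; black lines are the log2 of the mean CPM + 1. For each gene cells at 0 are found in all 3 groups, and for Dpysl3, Cfap97 and Gli3 the line of the other cells lies above that of the Tal2-positive cells.

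Of the genes that were lower in Tal2-positive cells, 79 met the same conditions with the sets exchanged. The largest ratio was that of Zfp275, an X-linked zinc finger gene, which ranged from 0 to 186 CPM in Tal2-negative cells (median 54.6) and from 0 to 43.3 CPM in Tal2-positive cells (median 0). It had at least 5 reads in 12 of 21 negative but 3 of 22 positive cells, at means of 60.1 ± 65.1 and 2.5 ± 9.24 CPM (log2 ratio -4.13, -5.29 to -3.97 without any 1 cell). The highest positive cell was E4, the cell with 2 Tal2 reads. In the 48 other cells the gene averaged 58.5 ± 117 CPM, close to the Tal2-negative mean, but with a median of 0 and reads in 18 cells.

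The other genes named for a large ratio towards Tal2-negative cells had log2 ratios from -2.86 to -2.16. Polq, a DNA polymerase of break repair, had reads in 4 positive and 15 negative cells, at 6.39 ± 17.7 and 45.8 ± 55.3 CPM (log2 ratio -2.66). Dbt, a subunit of the branched-chain keto acid dehydrogenase, had reads in 10 and 16 cells at 13.6 ± 27.1 and 69.4 ± 76.7 CPM (log2 ratio -2.27), and Hsdl2, a dehydrogenase-like gene, in 5 and 12 cells at 8.20 ± 18.1 and 47.7 ± 50.6 CPM (log2 ratio -2.40). In the 48 other cells Polq (12.8 ± 32.6 CPM) and Dbt (14.9 ± 31.1 CPM) lay nearer to the Tal2-positive mean. Hsdl2 (44.7 ± 60 CPM) lay nearer to the Tal2-negative mean. Ak1 (adenylate kinase), Agpat2 and Pcyt1a (phospholipid synthesis), Txnrd2 (a thioredoxin reductase of mitochondria) and Pnp (purine salvage) had log2 ratios from -2.44 to -2.16. The log2 ratio of Pnp was -0.95 with a pseudocount of 10 CPM, and its reads could be split with its neighbouring copy Pnp2. Cast, the calpain inhibitor, Stambpl1, a deubiquitinase, and S100a10, a partner of annexin, lay at -2.86, -2.47 and -2.34.

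Of the known partners of Tal proteins that could be measured, all but Lmo2 differed less than 2-fold between the sets. In either direction 8.96% of all genes were called, so 1 of 9 is close to that share. Of the 23 genes in a list of the Tal family and its partners, 10 passed the filter, 13 did not, and 7 of these were without any read in either set. Apart from Tal2 the 9 measured members lay between log2 ratios of -1.45 and 0.34. The E protein gene Tcf3 ranged from 24.4 to 371 CPM in Tal2-positive cells (median 151) and from 0.764 to 442 CPM in Tal2-negative cells (median 173). Tcf4 averaged 94.6 ± 103 and 80.9 ± 46 CPM and Tcf12 111 ± 102 and 118 ± 120 CPM. All 3 E protein genes thus were read in most cells of both sets, with log2 ratios of -0.27, 0.22 and -0.08.

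Among the cofactors, Lmo4 averaged 122 ± 53.6 and 96.1 ± 88.6 CPM (log2 ratio 0.34), and Ldb1, Ldb2, Ssbp2 and Ssbp3, which encode adaptors of the Lmo complex, lay between -0.09 and 0.06. Lmo2 alone was called lower (3.97 ± 9.6 and 12.6 ± 34.6 CPM, log2 ratio -1.45), with reads in 5 cells of each set. That ratio rests on the negative cells B10 (147 CPM) and D5 (70.5 CPM): it was -0.48 without B10 and turned to 1.07 under a stricter rule for epiblast-like cells. Of the close relatives of Tal2, named after their values were seen, Tal1 was not read in any of the 91 cells and Lyl1 had reads in 1 epiblast-like cell. None of the 14 genes of a list for midbrain GABAergic neurons, the setting in which Tal2 is best known, passed the filter.

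Of the measured genes of axial progenitors, 3 were lower in Tal2-positive cells and 15 differed less than 2-fold. Of 23 genes in this list, 18 passed the filter; T, Wnt3a and Rspo3 were 2-fold lower, also without any 1 cell, none was higher, and the median log2 ratio was -0.20. Over all genes 4.55% were lower, and 1.96% also without any 1 cell. T, the Brachyury transcription factor of the streak and of trunk progenitors, ranged from 0 to 649 CPM in Tal2-positive cells (median 45.4) and from 0 to 1536 CPM in Tal2-negative cells (median 137). The means of 111 ± 167 and 350 ± 471 CPM gave a log2 ratio of -1.65 (-2.03 to -1.38 without any 1 cell). The sets overlapped, but all 6 epiblast-like cells above 700 CPM of T were Tal2-negative (F3, B10, E2, H9, D5 and C10), a line drawn after the values were seen. At least 5 T reads were found in 13 of 22 and 15 of 21 cells, so the difference lay more in the level than in the share of cells.

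Wnt3a, the Wnt ligand of the streak, had at least 5 reads in 8 cells of each set. It reached 59.7 CPM in Tal2-positive cells and 246 CPM in Tal2-negative cells, with means of 10.1 ± 18.4 and 48.4 ± 78.2 CPM (log2 ratio -2.15, -2.5 to -1.83). Rspo3, an enhancer of Wnt signalling, averaged 2.81 ± 8.85 and 24.9 ± 53.5 CPM (log2 ratio -2.76), and its highest cells were C10 (184 CPM), F3 (132 CPM) and B10 (127 CPM), all Tal2-negative. Other members of the list differed less than 2-fold, among them Cdx1, a caudal homeobox gene (1230 ± 630 and 1201 ± 676 CPM, log2 ratio 0.03), and Sox2, the neural and epiblast factor (19.3 ± 27.4 and 21.2 ± 32.3 CPM, log2 ratio -0.13). Gbx2, a homeobox gene named after its value was seen because it lay just under the threshold, averaged 181 ± 105 and 90.4 ± 77.8 CPM (log2 ratio 0.99). Reads of T and Sox2 together, a sign used for progenitors of neural tube and mesoderm, were found in 10 of 22 positive (45.5%, interval 24.4 to 67.8%) and 15 of 21 negative cells (71.4%, interval 47.8 to 88.7%), and the intervals overlap. With at least 5 reads of each gene the counts were 7 of 22 (31.8%, interval 13.9 to 54.9%) and 9 of 21 (42.9%, interval 21.8 to 66%), so the gap was smaller.

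Of the genes switched on at entry into the streak and in presomitic mesoderm, the 6 that could be measured had lower means in Tal2-positive cells. Of the 20 genes in this list only 6 passed the filter; 4 were 2-fold lower, also without any 1 cell, none was higher, and the median log2 ratio was -2.38, beside 4.55% of all genes lower, 1.96% also without any 1 cell, and a median of -0.01. Dll1 (reads in 3 positive and 8 negative cells), Mixl1 (4 and 9) and Tbx6 (5 and 9) passed the filter mainly through the set in which they are high, so the count and the median describe these 6 genes and say nothing of the 14 others. Dll1, a Notch ligand, had at least 5 reads in 1 positive and 6 negative cells and averaged 2.20 ± 10.1 and 37.3 ± 111 CPM (log2 ratio -3.58). Cited1, a transcriptional coregulator, averaged 0.969 ± 3.50 and 12.8 ± 35.5 CPM (log2 ratio -2.80), and Mixl1, a homeobox gene of the streak, 5.56 ± 17.9 and 38 ± 113 CPM (log2 ratio -2.57). For all 3 the medians were 0 in both sets, so the means rest on a minority of cells.

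Tbx6, the factor that directs paraxial mesoderm, had at least 5 reads in 3 of 22 Tal2-positive (13.6%, interval 2.91 to 34.9%) and 9 of 21 Tal2-negative cells (42.9%, interval 21.8 to 66%). Its highest values were 56.6 CPM in D11 and 31 CPM in E9 among positive cells, and 217 CPM in D5, 89.8 CPM in C10 and 50.3 CPM in B10 among negative cells (log2 ratio -2.18). Every cell outside the epiblast-like set had Tbx6 reads, from 62.4 to 1201 CPM, a range that D5 and C10 reached and the other epiblast-like cells did not. The other measured members were Hes7, of the segmentation clock (log2 ratio -0.82), and Pdgfra, a receptor of mesoderm (-0.43), which was close to 0 in both sets. Counted over all 20 members, cells had at least 5 reads of a median of 1 gene (range 0 to 5) in the positive set, 2 genes (range 0 to 10) in the negative set and 12 genes (range 8 to 16) among the other cells. None of the genes was found in 7 positive and 2 negative cells, and at least 3 were found in 3 positive and 8 negative cells.

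**Figure D4:**
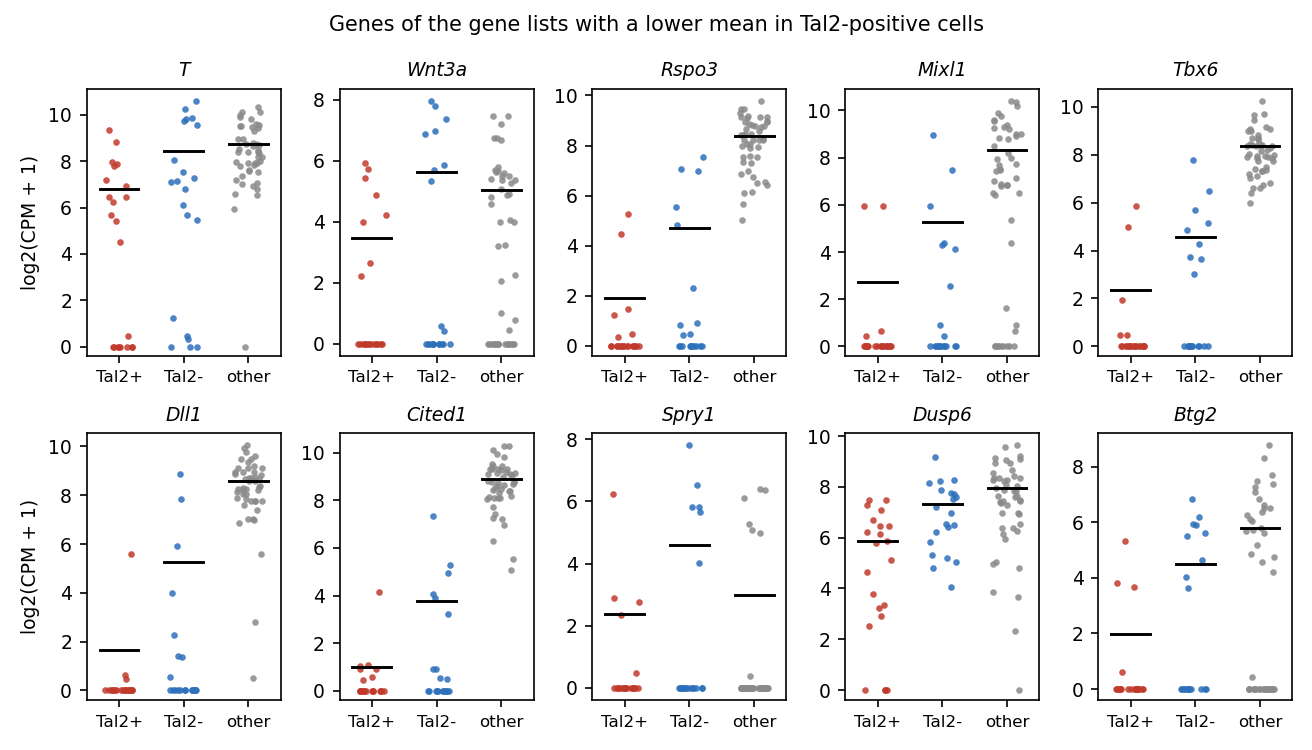
Log2(CPM + 1) of 10 list genes with a lower mean in Tal2-positive cells, in 22 Tal2-positive (red), 21 Tal2-negative (blue) and 48 other cells (grey), 1 point per cell; black lines are the log2 of the mean CPM + 1. The 6 epiblast-like cells with over 700 CPM of T are blue, and for Rspo3, Mixl1, Dll1 and Cited1 most cells of both sets are near 0.

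A few cells carried much of this. The Tal2-negative cell B10, which also lies at the edge of the epiblast-like rule, was among the 3 highest epiblast-like cells for 5 of the 7 genes T, Wnt3a, Rspo3, Mixl1, Tbx6, Dll1 and Cited1, F3 for 4, and C10, D5 and E2 for 2 each. B10, F3 and C10 were then left out, a choice made after their values were seen, as was that of C10 among the cells tied at 2. Without B10, F3 and C10 the log2 ratios of T (-0.94), Dll1 (-0.78), Rspo3 (-0.52) and Mixl1 (-0.02) were under 2-fold. Those of Wnt3a (-2.12), Tbx6 (-1.90) and Cited1 (-1.63) were not. The value of Tbx6 still rests in large part on D5 (217 CPM), as the 18 negative cells left averaged 18.3 ± 50.7 CPM. The summed mesoderm markers, which include Tbx6, Dll1 and the rule gene Aldh1a2, reached 57.9 CPM in Tal2-positive and 859 CPM in Tal2-negative cells. The 859 CPM were those of B10, where Aldh1a2 gave 570 CPM. None of the 8 markers was read in 50% or more of either set, and the part of these markers in the differences was not tested. A stricter rule left 20 positive and 13 negative cells and asked for little Tbx6 itself. T was then at -1.29, Wnt3a at -2.05, Dll1 at -3.67 and Tbx6 at -0.38. This rule kept F3, the highest epiblast-like cell for T (1536 CPM) and Dll1 (470 CPM). The values of T and Dll1 under it thus rest in part on that 1 cell.

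Of the measured genes that report FGF signalling through ERK, 3 were lower in Tal2-positive cells and 12 differed less than 2-fold. Of 19 genes in the list 15 passed the filter, 3 were 2-fold lower (2 of them also without any 1 cell) and none was higher, with a median log2 ratio of -0.31, beside 4.55% and 1.96% of all genes lower by these rules. Dusp6, a phosphatase that ERK signalling induces and that dampens it, ranged from 0 to 178 CPM in Tal2-positive cells (median 44.3) and from 15.5 to 583 CPM in Tal2-negative cells (median 124). It had at least 5 reads in 18 of 22 and all 21 cells, at means of 58 ± 59.9 and 159 ± 136 CPM (log2 ratio -1.44, -1.58 to -1.23 without any 1 cell), and stayed at -1.16 without B10, C10 and F3. The difference in Dusp6 thus lay in its level in cells that mostly had reads. Spry1, another feedback inhibitor, averaged 4.16 ± 15.9 and 23.4 ± 52.7 CPM with reads in 5 and 6 cells (log2 ratio -2.24), and Fgf15 12.6 ± 33.7 and 44.7 ± 96.5 CPM (log2 ratio -1.75, but -0.99 without 1 cell). Spry2 averaged 822 ± 541 and 1076 ± 637 CPM (log2 ratio -0.39), and Spred1 156 ± 147 and 141 ± 111 CPM (0.15).

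Single members of other lists were lower in Tal2-positive cells, beside 4.55% of all genes. Btg2, an antiproliferative gene that p53 induces, had reads in 4 positive and 9 negative cells (2.95 ± 8.94 and 21.4 ± 32.2 CPM, log2 ratio -2.5), and Mdm2, the inhibitor and target of p53, averaged 37.1 ± 49.7 and 87.9 ± 114 CPM (log2 ratio -1.22, -1.57 to -1.02). The other 11 measured genes of this list of immediate early and stress genes, 13 in all, differed less than 2-fold, among them Hsp90aa1 and Hspa8 (-0.02 and -0.09) and, named after the values were seen, the p53 target Cdkn1a (-0.09). Of 10 measured retinoic acid genes only Rxrb, a retinoid receptor, was called (3.98 ± 8.91 and 19.9 ± 38.3 CPM, log2 ratio -2.07). Rxrb had reads in 8 positive and 6 negative cells, and its highest cells were C10 (133 CPM), F9 (92.9 CPM) and E2 (83.4 CPM). Its lower mean thus came with reads in no fewer positive cells. Of 12 Notch and Hes genes, Dll1 was lower, and Notch1 was the only list gene besides Tal2 called higher (6.69 ± 22.3 and 0.921 ± 2.41 CPM, log2 ratio 2.0), with reads in 5 and 6 cells and a ratio of 0.68 without 1 cell.

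Of the 25 lists, 13 held at least 1 called member, 9 held measured genes of which none was called, and 3 had no measured gene. Together 233 distinct genes passed the filter, and 17 were lower (7.30%, beside 4.55% over all genes) and 2 higher (0.858%, beside 4.41%). In either direction 8.15% were called, beside 8.96% over all genes. None of the 19 epithelial genes was called: Cdh1, the epithelial cadherin, ranged from 44.5 to 690 CPM in Tal2-positive cells (median 158) and from 0 to 624 CPM in Tal2-negative cells (median 322), with a log2 ratio of means of -0.33, and Epcam averaged 281 ± 171 and 263 ± 175 CPM (0.10). Of 10 mesenchymal genes 1 was called, the fibronectin receptor subunit Itga5 (-1.59, but -0.88 without 1 cell), while Cdh2 lay at -0.21 and Vim at 0.07. None of 7 neural, 7 BMP and Id, 11 Hox, 25 S phase, 25 G2 and M phase and 21 glycolysis genes was called. Examples are Ldha, of glycolysis, at 4741 ± 1277 and 5054 ± 1583 CPM and Rrm2, of S phase, at 1063 ± 576 and 1098 ± 511 CPM. Genes of G2 and M phase had a median log2 ratio of 0.21 with 18 of 25 above 0, the highest being Top2a (667 ± 421 and 354 ± 359 CPM, 0.91), named after its value was seen.

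**Figure D5:**
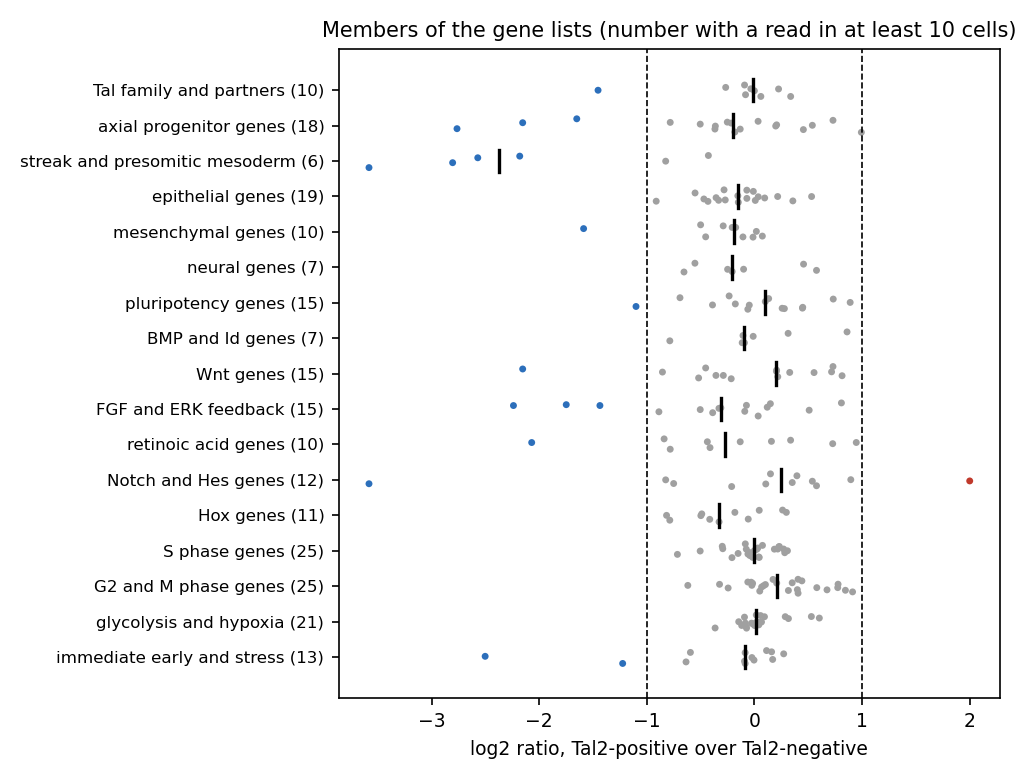
Log2 ratio of Tal2-positive over Tal2-negative cells for each measured member (points) of the lists with at least 5 measured genes, Tal2 left out; black bars are list medians over all measured members, Tal2 included in its list, and dashed lines mark 2-fold. The streak and presomitic mesoderm list has its median at -2.38, and the medians of the other lists lie between -0.33 and 0.25.

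In pluripotency and Wnt lists, 1 of 15 genes each was called, beside 8.96% of all genes in either direction. Trh, which encodes thyrotropin-releasing hormone, averaged 92.9 ± 108 and 200 ± 246 CPM (log2 ratio -1.10, but -0.83 without 1 cell), with reads in 19 and 18 cells. Sall4 and Lin28a, abundant genes of the epiblast, averaged 888 ± 221 and 811 ± 321 CPM and 629 ± 260 and 650 ± 189 CPM. In the Wnt list Wnt3a was the member called, while Wnt8a, a ligand of the caudal epiblast, averaged 127 ± 114 and 110 ± 90.3 CPM (0.21), and the target Lef1 52 ± 48.6 and 71.5 ± 54.6 CPM (-0.45). Of the germ cell list Dnd1 was called lower (-1.12, but -0.33 without 1 cell), with reads in 14 and 8 cells, and Kit lay at 0.08.

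The neighbours of Tal2 on chromosome 4 did not share its split. Of 16 annotated genes within 500 kb, 5 passed the filter and none was 2-fold different. Slc44a1, a choline transporter gene, had reads in 12 cells of each set (42.7 ± 51.2 and 29.9 ± 45 CPM, log2 ratio 0.50). The log2 ratios of the pseudogenes Rps15a-ps8, Gm12470 and Gm12468 lay between 0.11 and 0.25. Rps15a-ps8, 2.4 kb behind Tal2, had reads in all 43 cells, although reads of a pseudogene of a ribosomal protein may come from its parent gene.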

How the data were processed

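Reads of 91 sorted cells, sequenced by Smart-seq2, had been aligned by the authors to GRCm38 (mm10) with HISAT2 and assigned to genes with featureCounts, as the submitters' processing notes name them, and the deposited values are raw counts per gene, without normalization. The strand option, the annotation and tool versions were not given in sources used here, and without strand, reads of a gene and its antisense partner cannot be told apart. The file holds 53379 identifiers, of which 53274 matched a symbol.

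Counts were scaled to 1000000 per cell (CPM) in Python 3.11.15 with numpy 2.4.6, pandas 2.3.3 and scipy 1.17.1, and plots were drawn with matplotlib 3.10.9. Epiblast-like cells have more CPM of Nkx1-2 than of Aldh1a2. Ratios compare group means after 1 CPM was added to each, over genes with a read in at least 10 of the 43 cells. Total counts ran from 709866 to 4439571 over all cells. No cell was removed, no 2 cells had identical counts, and no doublet caller was run on these wells of 1 cell. Shares have exact Clopper-Pearson intervals of 95% confidence. With 1 pool and no embryo named, no test was possible between the sets.

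The cells, the gene lists and the comparisons were chosen with earlier results of these data known. Named genes are a preset group of Tal2, class genes and Tal partners, the 12 largest ratios in each direction among genes with at least 10 CPM and reads in 50% or more of the higher set that stay 2-fold without any 1 cell (unnamed gene models and pseudogenes left out), up to 4 such members and 2 abundant members of each list, and genes within 500 kb of Tal2; others are said to be chosen after their values were seen. Members of lists that are not named are given as counts. Some genes that the rule names are not reported here. Alternatives were a pseudocount of 10 CPM, median-of-ratios size factors over 1997 genes, thinning to 500000 counts, at least 5 Tal2 reads, a stricter epiblast-like rule (Nkx1-2 at least 10 times Aldh1a2, under 10 CPM of Tbx6 and of Msgn1), other filters, and leaving out each cell. The scripts were tested on simulated data. Gene coordinates come from GENCODE and promoter sequence from RefSeq, both on GRCm38.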

Additional observations from a re-analysis of the deposited data

How the results depend on the processing

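The number of genes at least 2-fold higher was 498 and the number lower 514. They were 151 and 159 with a pseudocount of 10 CPM, 1767 and 1777 over all 20739 genes with a read, and 762 and 674 under the stricter epiblast-like rule, which left 13 negative cells. The other settings, the added ones without 4 cells of at least 50 CPM of Tbx6 or without B10, C10 and F3 included (both chosen after seeing the data), kept both counts within 1.5 times. Leaving out each cell gave 490 to 547 higher and 500 to 542 lower genes. List genes called were 19, 29 under the stricter rule, 15 without B10, C10 and F3 (13 of the 19 among them), and 18 to 25 on leaving out each cell. Positive cells were 22, or 20 to 21 under the alternatives.

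Of 38 named genes at least 2-fold different, 36 to 38 stayed so on leaving out each cell. The rule for naming had asked this of most of them, so that count tests nothing. Over all genes 8.96% were called, and 3.99% stayed so without any 1 cell. Under all 7 other settings 30 of the 38 stayed 2-fold. Lmo2 turned from -1.45 to 1.07 under the stricter rule and to 0.50 without the cells of at least 50 CPM of Tbx6. Aldh1a2, a gene of the rule, went from -4.44 to -0.04 without cell B10 alone.

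No paired analysis was possible because no embryo is named for any cell, and no test was made. Depth limits the genes of low level: 0 reads in a cell do not show absence, and genes under the filter of 10 cells were not compared.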
